A study of Homo sapiens with 9 samples.

Results

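Homologous recombination, Fanconi and checkpoint genes were followed in a human lymphoblastoid line exposed to sulforaphane. The list held 45 genes, chosen by name for their roles, and a gene was measured where a transcript cluster (the set of probes of 1 gene) was annotated to its symbol and to no other. That was so for 35 of the 45, each with 1 cluster, out of 14232 genes with a cluster of their own. By a single class chosen here for each gene, they comprised 20 recombination genes, 8 Fanconi genes, 1 mismatch repair gene and 6 checkpoint and fork genes. Some genes could be placed in more than 1 class, and the class counts and medians below depend on this choice. FANCL, PMS2, ATM, ATRIP, TIPIN and RAD50 had only clusters annotated to a further gene, and BRCA2, FANCA, FANCD2 and RBBP8 were not analysed here.

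Homologous recombination repairs a broken chromosome by resecting its ends, pairing the single strand with the matching duplex and copying the sister chromatid, so it works mainly in S and G2 phase. The Fanconi pathway removes crosslinks between the strands of DNA and hands the resulting breaks to recombination. Stalled forks and resected ends activate the kinase ATR, which signals through claspin to the checkpoint kinase CHK1 and holds back mitosis. Many of these genes are transcribed most strongly in proliferating cells, and lymphoblastoid cells divide quickly in culture.

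The cells were GM12878, a single B-cell line immortalised with Epstein-Barr virus, grown in medium with 15% serum. The groups were untreated cultures at 0 h, cultures after 8 h in 10 µM D,L-sulforaphane and cultures after 24 h in it, with 3 replicate arrays each. Sulforaphane is an isothiocyanate that activates the transcription factor NRF2. A 0.1% DMSO vehicle appears in the protocol, yet the arrays analysed here include no vehicle or time-matched culture, so treatment and time in culture cannot be told apart. The labels do not say whether replicates were grown on separate days, and p-values measure only the spread between these cultures. In a bulk culture, fewer cells of a kind (for example in S phase) and less RNA per cell cannot be told apart. Values below are log2 RMA signals, and changes are log2 differences ± SE with n = 3 arrays per group. A gene was called at an adjusted p below 0.05 from limma over 22011 clusters.

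The 9 arrays had mean signals of 7.97 to 8.14. The lowest mean, and a first-component score far from the rest (54.4), belonged to untreated replicate 2. It was the lowest of the 9 arrays for 9 of the 35 genes, against 30.4% of all clusters. It was also the highest for 3 of the 35, against 24.2% of all clusters. Its upper quartile was 9.28, where the other arrays had 9.42 to 9.63. Untreated replicate 1 was the highest of the 9 for 21 of the 35, against 7.96% of all clusters, and the untreated means below include both arrays. The 8 measured B-cell markers, among them MS4A1 and PAX5, had group means between 9.49 and 13.3, and BLK rose at 24 h by 0.44 ± 0.08 (adjusted p = 0.038), though it passed in 0 of 9 fits without 1 array. None of 17 markers of T, myeloid, fibroblast and erythroid cells was called by limma in any comparison (2 had an unadjusted p below 0.05 at 8 h, 1 at 24 h and 1 from 8 h to 24 h), and all 17 had a change below 0 at 8 h. Their summed log2 signal lay between 116.3 and 119.3 untreated, between 115.2 and 116.1 at 8 h and between 116.1 and 117.2 at 24 h.

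After 24 h of sulforaphane, 2 of the 35 genes had fallen and 0 had risen, where 1.62% of all clusters were called, 0.791% lower and 0.831% higher. The 2 were EME1, which cuts branched recombination intermediates with MUS81, and FANCI, the partner of FANCD2 in the clamp that marks a crosslinked site. At 8 h, 0 of the 35 were called by limma, where 0.595% of all clusters were, and 6 had an unadjusted p below 0.05, all of them lower (15.1% of all clusters had such a p in either direction). From 8 h to 24 h, 0 were called, where 0.327% of all clusters were, and 8 had an unadjusted p below 0.05, 4 in each direction (10.4% of all clusters). The median change of the 35 was -0.14 at 8 h and -0.07 at 24 h, against -0.01 and 0.02 over all clusters. Without untreated replicate 1 these medians of the 35 were -0.05 and -0.02, and without untreated replicate 2 they were -0.19 and -0.21.

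At 24 h, 15 of the 35 had an unadjusted p below 0.05, against 20.4% of all clusters, and 14 of the 15 were lower, FANCF being the exception. All 24 h arrays lay below all untreated arrays for 13 of the 35, against 8.75% of all clusters, and above them for 2, against 15.6%. At 8 h the arrays lay wholly below for 7, against 8.55% of all clusters, and wholly above for 0, against 9.06%. From 8 h to 24 h they lay wholly below for 7, against 6.4% of all clusters, and wholly above for 5, against 15.2%. BLM, EME1, EXO1, TIMELESS and XRCC3 were separated downward at both times, which held for 3.83% of all clusters; both comparisons share the untreated arrays. By class, the median changes at 8 h and 24 h were -0.11 and -0.06 for the 20 recombination genes, -0.13 and -0.18 for the 8 Fanconi genes and -0.15 and -0.19 for the 6 checkpoint and fork genes. Without untreated replicate 2 they were -0.13 and -0.17, -0.16 and -0.21, and -0.30 and -0.33 in the same order of classes, a comparison chosen after seeing the data. Class medians without untreated replicate 1 are not given here. Over all 35 genes, leaving out that array brought the medians closer to zero. The differences between the classes were not tested.

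**Figure D1:**
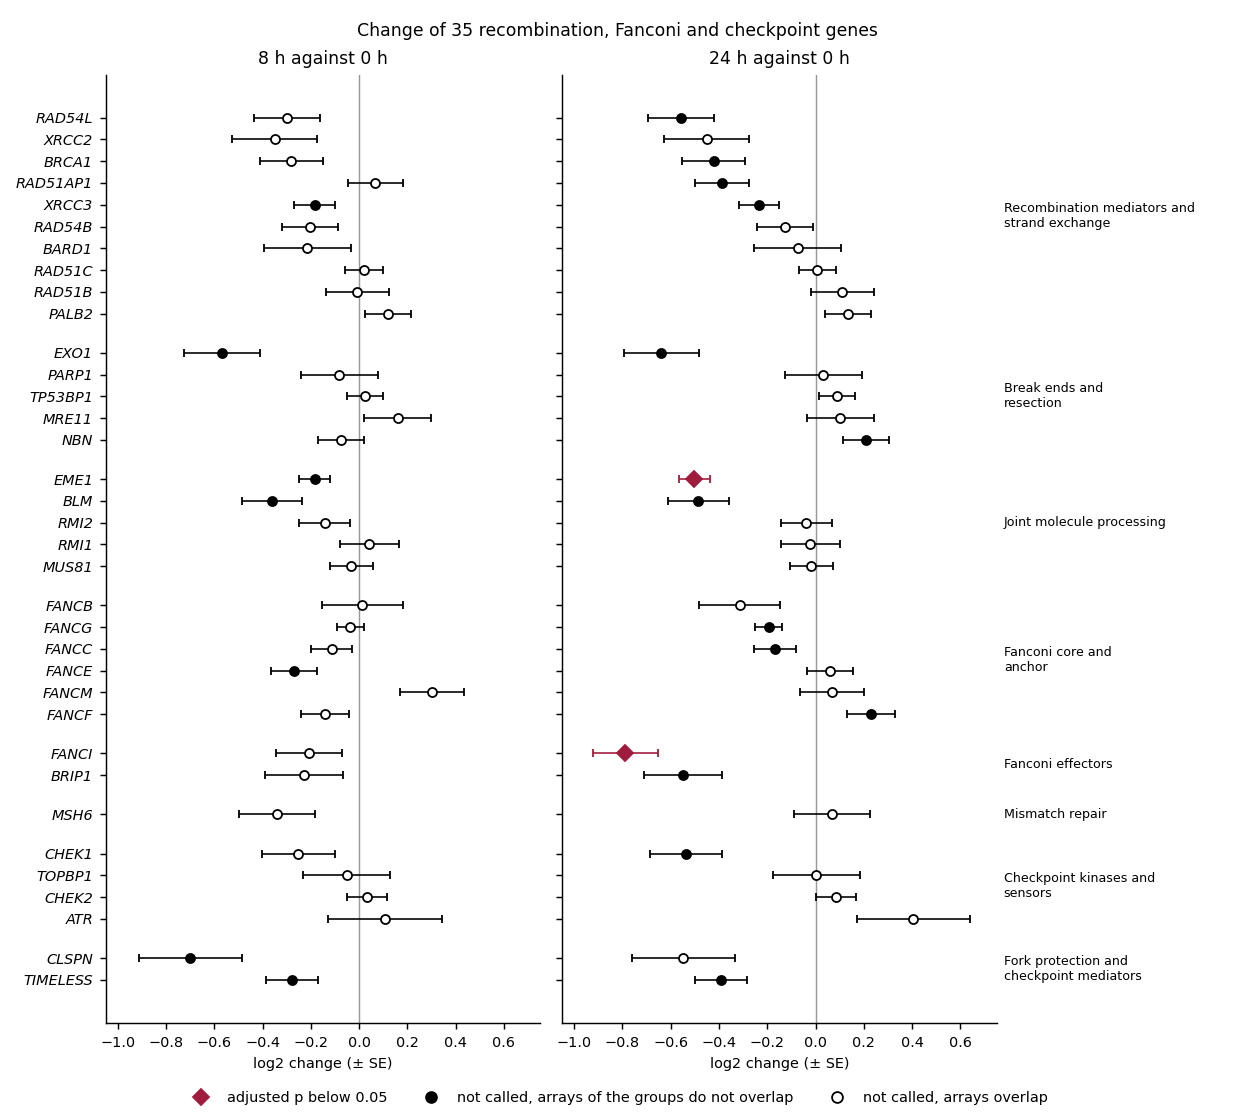
Log2 change (horizontal axis, ± SE, n = 3 arrays per group) of each of the 35 genes, grouped by role, at 8 h (left) and 24 h (right) against 0 h. Red diamonds mark EME1 and FANCI at 24 h, the only calls; filled circles mark genes whose arrays did not overlap between the groups.

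The plot of every gene's change shows a spread on both sides of zero, from -0.79 to 0.41 at 24 h. The genes are taken below in the order of their work, from strand exchange to the checkpoint.

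Among the 10 measured mediators of strand exchange, 0 were called by limma at either time. At an unadjusted p below 0.05 there were 0 at 8 h and 5 at 24 h, against 15.1% and 20.4% of all clusters. The median change was -0.19 at 8 h and -0.18 at 24 h. RAD54L (cluster 2334646), a motor protein of the search for the matching duplex, read 8.73, 8.23 and 8.64 untreated, 8.29, 8.19 and 8.23 at 8 h, and 7.80, 8.01 and 8.12 at 24 h. The 24 h arrays lay below every untreated and every 8 h array, while 8 h overlapped the low untreated replicate 2. The change at 24 h was -0.56 ± 0.14 (adjusted p = 0.093), and without untreated replicate 2 it was -0.71 ± 0.10 and passed (adjusted p = 0.026). That was the only 1 of 9 fits without 1 array in which RAD54L passed, and the adjusted p reached 0.294 in the others.

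BRCA1, which forms with BARD1 a ubiquitin ligase that steers breaks to recombination, had changes of -0.28 ± 0.13 at 8 h and -0.42 ± 0.13 at 24 h (adjusted p = 0.15), with all 24 h arrays below the untreated ones. Its partner BARD1 had changes of -0.21 ± 0.18 at 8 h and -0.07 ± 0.18 at 24 h (adjusted p = 0.58 and 0.81). Untreated replicate 2 read 9.16 for BARD1, against 9.86 and 9.89 on the other untreated arrays. Without it BARD1 was called at 8 h, at -0.45 ± 0.07 (adjusted p = 0.043), and had a change of -0.31 at 24 h. Fits of BARD1 without other arrays are not given here.

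RAD51AP1, which stimulates strand invasion, had means of 8.52 ± 0.19 (SD) untreated, 8.58 ± 0.15 at 8 h and 8.13 ± 0.09 at 24 h. Its change from 8 h to 24 h, -0.45 ± 0.11, had an unadjusted p of 0.0038 and an adjusted p of 0.21, with no overlap of arrays. Of 4 related genes that assist strand exchange, XRCC2 and XRCC3 had changes of -0.45 ± 0.18 and -0.24 ± 0.08 at 24 h (unadjusted p = 0.033 and 0.022), and RAD51B and RAD51C of 0.11 ± 0.13 and 0.01 ± 0.08. PALB2, which bridges BRCA1 to BRCA2, had a change of 0.13 ± 0.10 and RAD54B, a relative of RAD54L, of -0.12 ± 0.12. Without untreated replicate 2 the changes of PALB2 and RAD51B at 24 h were 0.044 and 0.0072. The 95% interval for RAD51C ran from -0.17 to 0.18.

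Among 5 genes acting on break ends, 0 were called by limma at either time, and EXO1 alone had an unadjusted p below 0.05 there. EXO1 (cluster 2388219), an exonuclease of long-range resection and of mismatch repair, read 9.05, 8.51 and 9.06 untreated, 8.39, 8.27 and 8.25 at 8 h, and 8.05, 8.25 and 8.41 at 24 h. Every sulforaphane array lay below every untreated array, including the low replicate 2. The changes were -0.57 ± 0.16 at 8 h (adjusted p = 0.15) and -0.64 ± 0.16 at 24 h (adjusted p = 0.094). Without untreated replicate 2, EXO1 passed at both times, at -0.75 ± 0.11 and -0.82 ± 0.11 (adjusted p = 0.028 and 0.024). At each time this was the only 1 of 9 fits without 1 array in which EXO1 passed. In the others its adjusted p reached 0.373 at 8 h and 0.299 at 24 h.

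The other 4 break-end genes had changes above zero at 24 h with all 9 arrays, and NBN and TP53BP1 kept that sign without untreated replicate 2. NBN, a subunit of the MRN complex that senses breaks, had a change of 0.21 ± 0.10 (adjusted p = 0.26), with every 24 h array above every untreated and every 8 h array. MRE11, the nuclease of that complex, had a change of 0.10 ± 0.14. TP53BP1, which shields ends from resection, had a change of 0.09 ± 0.07, and PARP1, a sensor of strand breaks, of 0.03 ± 0.16. Untreated replicate 2 was the lowest of the 9 arrays for MRE11 and PARP1. Without it their changes at 24 h were -0.055 and -0.15, so both signs rested on that array.

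Of 5 genes that process joint molecules, EME1 fell at 24 h and 4 were not called. EME1 (cluster 3726375) read 8.42, 8.26 and 8.44 untreated, 8.20, 8.19 and 8.18 at 8 h, and 7.83, 7.89 and 7.89 at 24 h. The 3 groups did not overlap anywhere, and each time stood below the one before it. The fall at 24 h was -0.50 ± 0.06, or 1.42-fold lower (95% interval -0.65 to -0.35, adjusted p = 0.018). The change at 8 h was -0.18 ± 0.06 (adjusted p = 0.24), and that from 8 h to 24 h was -0.32 ± 0.06 (adjusted p = 0.13).

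EME1 was also the only 1 of the 35 called by the F-test over the 3 times, where 1.35% of all clusters were called. Its partner MUS81, the catalytic subunit of the same nuclease, had a change of -0.02 ± 0.09 at 24 h, with a 95% interval of -0.22 to 0.19. BLM, the helicase mutated in Bloom syndrome, had changes of -0.36 ± 0.13 at 8 h and -0.48 ± 0.13 at 24 h (adjusted p = 0.23 and 0.11), and its arrays were separated from the untreated ones at both times. RMI1 and RMI2, which act with BLM to dissolve joined duplexes, had changes of -0.02 ± 0.12 and -0.04 ± 0.11 at 24 h. The differences between EME1 and MUS81, and between BLM and its partners, were not tested.

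**Figure D2:**
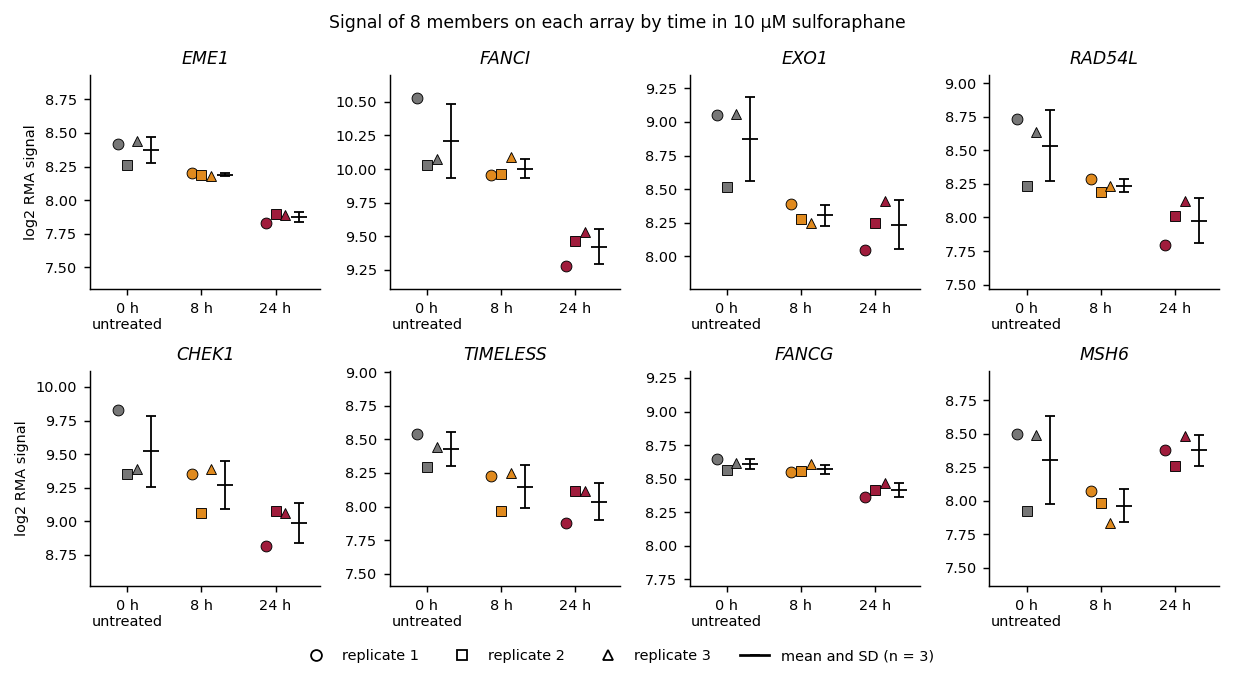
Log2 RMA signal (vertical axis, each panel spanning the same range of log2 units) of 8 genes on each of the 9 arrays by time in 10 µM sulforaphane, with means and SDs (n = 3). EME1 is lower at each later time with no overlap, FANCI is lowest at 24 h, and MSH6 is lowest in mean at 8 h.

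In the Fanconi group 1 of 8 measured genes fell at 24 h. FANCI (cluster 3607510) read 10.53, 10.03 and 10.07 untreated, 9.96, 9.96 and 10.09 at 8 h, and 9.28, 9.46 and 9.53 at 24 h. The 24 h arrays lay apart from the rest, whereas 8 h overlapped the untreated range, and untreated replicate 1 was the highest array. The fall at 24 h was -0.79 ± 0.14, or 1.73-fold lower (95% interval -1.10 to -0.48, adjusted p = 0.037). The change at 8 h was -0.21 ± 0.14 (adjusted p = 0.49), and that from 8 h to 24 h was -0.58 ± 0.14 (adjusted p = 0.18).

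BRIP1, a helicase that binds BRCA1 and is also known as FANCJ, had changes of -0.23 ± 0.16 at 8 h and -0.55 ± 0.16 at 24 h (adjusted p = 0.51 and 0.14). Its 24 h arrays, 8.47, 8.71 and 8.66, lay below all untreated and all 8 h arrays. The core complex, which attaches ubiquitin to FANCI and FANCD2, had changes in both directions. FANCG (cluster 3204463), a scaffold of the core, read 8.64, 8.57 and 8.61 untreated, 8.55, 8.56 and 8.61 at 8 h, and 8.36, 8.42 and 8.47 at 24 h. Its 24 h arrays lay below the other 6, with a change of -0.19 ± 0.06 (adjusted p = 0.13).

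FANCB and FANCC, further core subunits, had changes of -0.31 ± 0.17 and -0.17 ± 0.09 at 24 h. FANCF (cluster 3366519), an adaptor of the core, read 7.49, 7.41 and 7.43 untreated, 7.28, 7.15 and 7.48 at 8 h, and 7.71, 7.53 and 7.78 at 24 h. All of its 24 h arrays were above the other 6, with changes of 0.23 ± 0.10 against untreated and 0.37 ± 0.10 against 8 h (adjusted p = 0.24 and 0.23). FANCE, which recruits FANCD2 to the core, had means of 9.09 ± 0.17 (SD) untreated, 8.82 ± 0.08 at 8 h and 9.15 ± 0.08 at 24 h, with the 8 h arrays below all others. FANCM, the motor protein that anchors the core on DNA, had changes of 0.30 ± 0.13 at 8 h and 0.07 ± 0.13 at 24 h, and of 0.18 and -0.050 without untreated replicate 2.

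The only measured mismatch repair member was MSH6 (cluster 2481142), which takes part in recognising mispaired bases. It read 8.50, 7.92 and 8.49 untreated, 8.08, 7.98 and 7.83 at 8 h, and 8.38, 8.26 and 8.49 at 24 h. All 24 h arrays lay above all 8 h arrays, while untreated replicate 2 alone overlapped the 8 h range. The changes were -0.34 ± 0.16 at 8 h, 0.07 ± 0.16 at 24 h and 0.41 ± 0.16 from 8 h to 24 h (adjusted p = 0.35, 0.80 and 0.40). Without untreated replicate 2 the change at 24 h was -0.12, so its sign rested on that array.

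Of 4 checkpoint kinases and sensors, 0 were called by limma, and CHEK1 at 24 h was the only one with an unadjusted p below 0.05 against untreated. CHEK1 (cluster 3354799), which encodes the kinase CHK1, read 9.83, 9.35 and 9.39 untreated, 9.35, 9.07 and 9.39 at 8 h, and 8.81, 9.08 and 9.06 at 24 h. Its 24 h arrays were below every untreated array, and untreated replicate 1 was the highest. The change at 24 h was -0.54 ± 0.15 (adjusted p = 0.12). CHEK2, the kinase that ATM activates at breaks, had a change of 0.08 ± 0.08, and TOPBP1, an activator of ATR, of 0.0035 ± 0.18. For TOPBP1 untreated replicate 2 read 9.67, against 10.38 and 10.23 on the other untreated arrays, and without it the change at 24 h was -0.21.

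ATR (cluster 2698844), the kinase upstream of CHK1, had the largest positive change of the 35 at 24 h, 0.41 ± 0.24 (adjusted p = 0.34). It read 8.84, 7.88 and 8.67 untreated, 8.67, 8.55 and 8.48 at 8 h, and 9.11, 8.67 and 8.81 at 24 h. Untreated replicate 2 lay 0.60 below the next array, and the groups overlapped. The 24 h change without that array was 0.11.

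Both fork mediators were low at both times without being called. CLSPN (cluster 2406420) encodes claspin, the adaptor through which ATR phosphorylates CHK1, and read 8.17, 7.25 and 8.00 untreated, 7.23, 7.12 and 6.97 at 8 h, and 7.27, 7.19 and 7.32 at 24 h. Untreated replicate 2 sat with the sulforaphane arrays and away from its own group. The changes were -0.70 ± 0.21 and -0.55 ± 0.21 (adjusted p = 0.18 and 0.22), and without that array they were -0.98 ± 0.09 and -0.83 ± 0.09 (adjusted p = 0.015 and 0.017). Fits of CLSPN without untreated replicate 1, its highest array, are not given here.

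TIMELESS (cluster 3457824), which travels with the replication fork together with TIPIN, read 8.54, 8.29 and 8.45 untreated, 8.23, 7.97 and 8.25 at 8 h, and 7.88, 8.11 and 8.12 at 24 h. No sulforaphane array reached the lowest untreated one. The changes were -0.28 ± 0.11 and -0.39 ± 0.11 (adjusted p = 0.29 and 0.12).

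**Figure D3:**
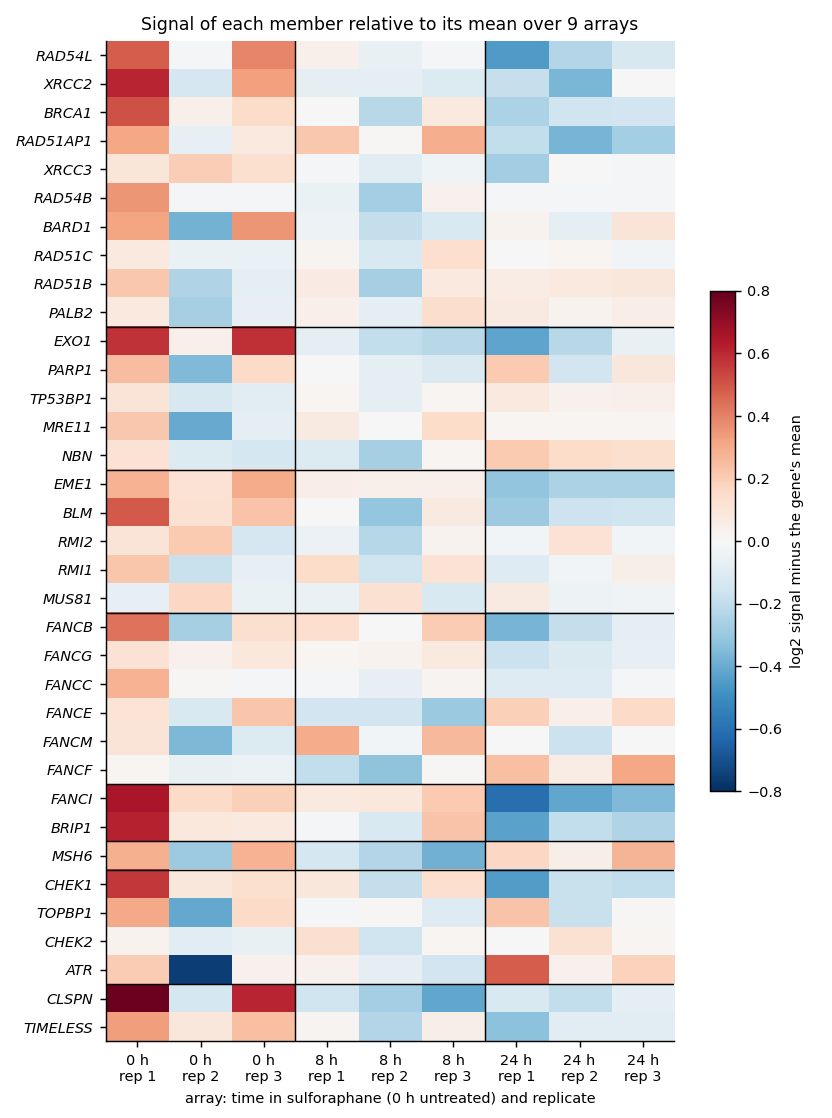
Log2 signal of each of the 35 genes on each array minus that gene's mean over the 9 arrays (red above, blue below), with genes grouped by role and arrays by time. Untreated replicate 1 is red for most genes, untreated replicate 2 is dark blue for ATR, and EXO1 and CLSPN are low on all 6 sulforaphane arrays.

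The map of every gene on every array shows how uneven the 3 untreated arrays were. Leaving out single arrays bore on both calls at 24 h. EME1 passed in 4 of 9 such fits (adjusted p from 0.0076 to 0.088), namely without untreated replicate 1 or 2 or without 8 h replicate 2 or 3. FANCI passed in 2 of 9 (adjusted p from 0.028 to 0.147), without untreated replicate 1 or 2. Over the 9 fits the change lay between -0.56 and -0.47 for EME1 and between -0.88 and -0.63 for FANCI. In a fit of the 24 h and untreated arrays alone, neither passed (adjusted p = 0.089 and 0.13). With untreated replicate 2 left out, 3 of the 35 were called at 8 h (BARD1, CLSPN and EXO1), 5 at 24 h (CLSPN, EME1, EXO1, FANCI and RAD54L) and 1 from 8 h to 24 h (EME1), all lower. In those fits 1.32%, 1.43% and 0.727% of all clusters were called. Leaving that array out also turned the sign of the change for 7 of the 35 at 8 h (ATR, FANCB, MUS81, RAD51AP1, RAD51C, RMI1 and TP53BP1) and for 9 at 24 h (FANCE, FANCM, MRE11, MSH6, MUS81, PARP1, RAD51C, RMI2 and TOPBP1). Such turns are not given here without untreated replicate 1, the highest array for 21 of the 35, so falls may rest on it. Over the 9 fits, changes at 24 h lay between -0.62 and -0.38 for CHEK1 and between -0.82 and -0.54 for EXO1. For RAD54L they lay between -0.71 and -0.46.

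**Figure D4:**
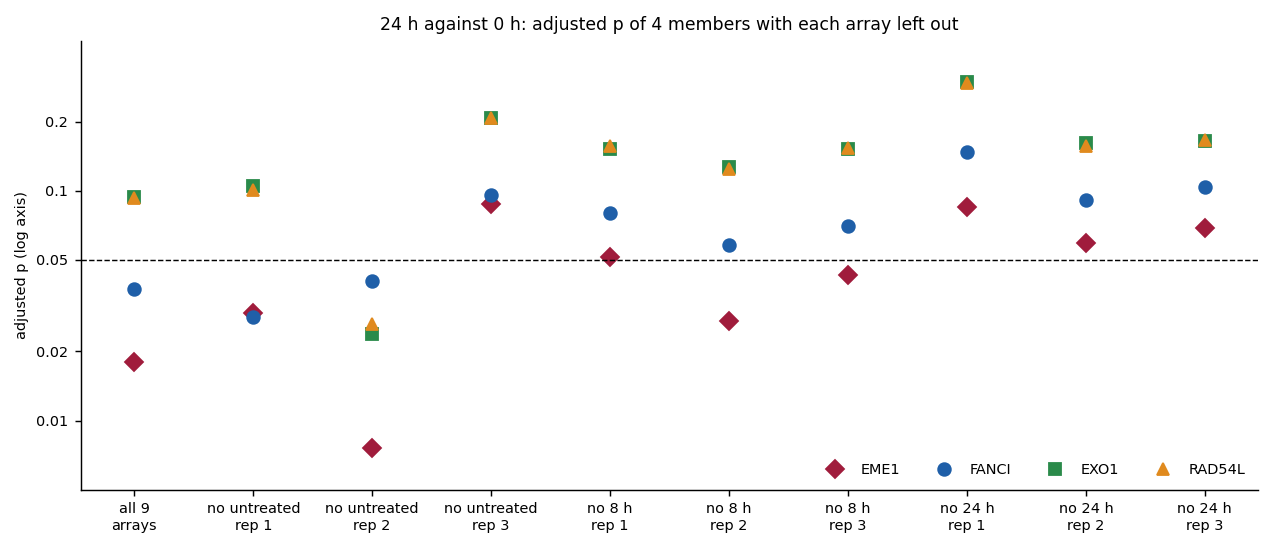
Adjusted p at 24 h against 0 h (vertical log axis, dashed line at 0.05) of 4 genes with all 9 arrays and with each array left out in turn. EME1 lies under the line in 4 of the 9 fits and FANCI in 2, while EXO1 and RAD54L are under it only without untreated replicate 2.

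Of a further 70 genes of recombination, Fanconi repair, mismatch repair and the checkpoint, 53 were measured. At 24 h, 4 of them had fallen and 0 had risen by limma, where 1.62% of all clusters were called. At an unadjusted p below 0.05, 14 were lower and 7 higher, against 20.4% of all clusters in either direction. Untreated replicate 2 was the lowest of the 9 arrays for 22 of the 53, among them all 7 higher genes. Without it the changes of RAD17 and HELQ were 0.33 and 0.26, against 0.59 and 0.56 with all arrays. HROB, which recruits the MCM8 and MCM9 helicase to recombination sites, fell by 0.55 ± 0.08 on the log2 scale (adjusted p = 0.028). WEE1 and PKMYT1, kinases that restrain CDK1, fell by 0.40 ± 0.06 and 0.56 ± 0.10 (adjusted p = 0.029 and 0.044). H2AX, the histone variant phosphorylated at breaks, fell by 0.37 ± 0.07 (adjusted p = 0.049). HROB and WEE1 each passed in 3 of 9 fits without 1 array (untreated replicate 1 or 2, or 8 h replicate 2), and PKMYT1 and H2AX only without untreated replicate 1. The median of the 53 was -0.02 at 24 h and -0.04 at 8 h. At 8 h, 0 of the 53 were called by limma, and 8 had an unadjusted p below 0.05 (15.1% of all clusters).

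In other repair routes, LIG4 was the only gene called at 24 h, where 1.62% of all clusters were called. Of 10 measured genes of non-homologous end joining, LIG4, the ligase of that route, rose at 24 h by 0.50 ± 0.09 (adjusted p = 0.049). LIG4 read 9.38, 9.20 and 9.35 at 24 h, against 8.90, 8.69 and 8.85 untreated, with no overlap, and it passed in 2 of 9 fits without 1 array (untreated replicate 1 or 8 h replicate 2). The median of the 10 was 0.10, and PRKDC, the kinase of the same route, had a change of -0.35 ± 0.10 (adjusted p = 0.14). Of 23 genes of base and nucleotide excision repair, 0 were called by limma at 24 h. An unadjusted p below 0.05 was found for 5 of the 23, against 20.4% of all clusters, and their median was 0.05 over all 23. The differences between these lists and the 35 genes were not tested.

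Cell-cycle markers were measured on the same arrays. Of 18 S phase markers, 1 fell at 8 h and 5 at 24 h, where 0.595% and 1.62% of all clusters were called. The medians of the 18 were -0.46 and -0.43. At 8 h, CDC6, which licenses replication origins, fell by 1.03 ± 0.13 (adjusted p = 0.018, called in 4 of 9 fits without 1 array). The 8 h arrays lay below all untreated arrays for 15 of the 18, against 8.55% of all clusters. Of 18 mitosis markers, 0 were called at 8 h by limma (3 with an unadjusted p below 0.05, against 15.1% of all clusters). At 24 h, 13 of these 18 fell. Their medians were 0.06 at 8 h and -0.93 at 24 h. PLK1, a kinase of mitotic entry, fell by 1.40 ± 0.10 at 24 h (adjusted p = 0.0014), and was called in all 9 fits without 1 array. Without untreated replicate 2 the calls were 8 at 8 h and 8 at 24 h for S phase and 16 at 24 h for mitosis. Of all clusters, 1.32% at 8 h and 1.43% at 24 h were called in that fit. Without untreated replicate 3 the calls were 0, 0 and 5 in the same order. Of all clusters, 0.0409% at 8 h and 0.0954% at 24 h were called without untreated replicate 3. S phase calls at 8 h were also 0 without 24 h replicate 2 or any single 8 h array. Those at 24 h were also 0 without 8 h replicate 1 or any single 24 h array. The part of these cell-cycle changes in the values of the 35 genes was not tested.

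**Figure D5:**
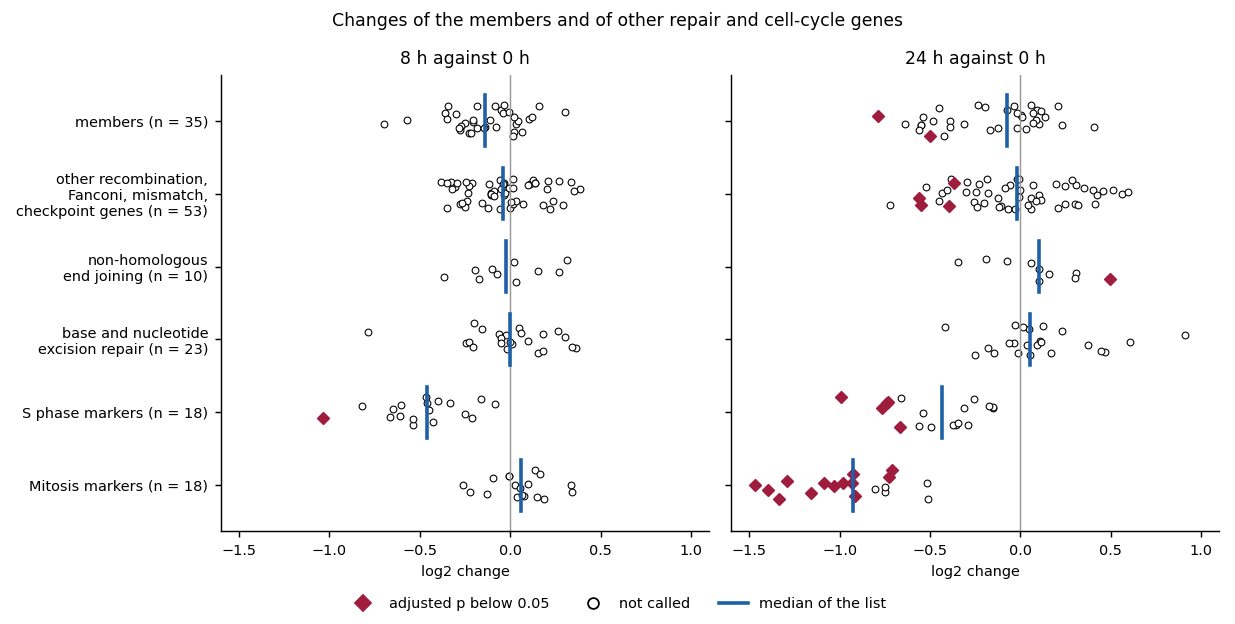
Log2 change of every measured gene (points) at 8 h (left) and 24 h (right) against 0 h for the 35 genes and 5 further lists, with called genes as red diamonds and the median of each list as a blue bar. The S phase bar lies left of zero at both times and the mitosis bar only at 24 h. The bars of the 3 other repair lists lie between -0.04 and 0.10, and that of the 35 genes at -0.14 and -0.07.

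The plot of lists places the median of the 35 genes between that of the S phase markers and those of the other repair lists at both times. Untreated replicate 2 was the lowest of the 9 arrays for 39.1% to 41.5% of the genes in each other repair list. It was so for 25.7% of the 35 genes and 0% of the S phase markers. Without that array the median of the 35 genes was -0.19 at 8 h and -0.21 at 24 h. Medians of the other lists without it are not given here, so the order of the lists may rest on that array. To show what lies at the starts of the 35 genes, promoter windows from RefSeq were searched on both strands for letters of known cell-cycle and stress elements. A window ran from 250 bases before to 50 after each annotated start (GRCh38.p14). A window was found for 31 of the 35 genes, 43 windows in all. The letters TTTCCCGC, TTTGGCGC, TTTCGCGC or TTTGCCGC, which the E2F factors of S phase entry can bind, stood in 7 of the 43 windows (16.3%), against 3.31% of all 35116 windows. The 7 genes with such a match were CLSPN, EXO1, FANCC, MSH6, RMI1, TOPBP1 and XRCC2.

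The matches are shown because EXO1 and CLSPN had the largest changes of the 35 at 8 h; they were picked after the values were seen. Each line runs 5′ to 3′ along the gene's own strand, with the E2F letters in capitals; where the gene's strand reads GCGGGAAA, GCGCGAAA or GCGGCAAA, the letters lie on the opposite strand.
CLSPN, chr1:35769965-35769994, minus strand: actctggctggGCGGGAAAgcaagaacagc
EXO1, chr1:241848197-241848226, plus strand: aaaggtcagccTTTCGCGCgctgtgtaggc
MSH6, chr2:47783137-47783166, plus strand: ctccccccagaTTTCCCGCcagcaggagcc
XRCC2, chr7:152676102-152676131, minus strand: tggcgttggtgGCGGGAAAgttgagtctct
TOPBP1, chr3:133661930-133661959, minus strand: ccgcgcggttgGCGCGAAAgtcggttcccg
RMI1, chr9:83980762-83980791, plus strand: ggcgcgagcgcGCGGCAAAtcgggcgggaa
FANCC, first match, chr9:95317863-95317892, minus strand: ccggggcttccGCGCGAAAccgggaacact
FANCC, next match, chr9:95317737-95317766, minus strand: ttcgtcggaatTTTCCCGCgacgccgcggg

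The match began 5 bases before the annotated start in CLSPN, 7 before it in TOPBP1 and 32 before it in RMI1, 172 and 46 before it in FANCC, and past the start in EXO1, MSH6 and XRCC2. The median change at 8 h was -0.34 for the 7 genes with a match and -0.06 for the 24 without, and at 24 h it was -0.17 and -0.05. Over all named genes with a window, the medians with and without a match were -0.02 and -0.03 at 8 h and 0.01 and -0.00 at 24 h. Among the 7 genes with a match, changes at 8 h ran from -0.70 for CLSPN to 0.04 for RMI1.

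The CLSPN window held 3 further matches to CCAAT, the letters of the factor NF-Y, each read as ATTGG on the gene's strand. It is printed to 3 bases past the start (chr1:35769976-35770228, minus strand), with the CCAAT and E2F letters in capitals.
CLSPN promoter: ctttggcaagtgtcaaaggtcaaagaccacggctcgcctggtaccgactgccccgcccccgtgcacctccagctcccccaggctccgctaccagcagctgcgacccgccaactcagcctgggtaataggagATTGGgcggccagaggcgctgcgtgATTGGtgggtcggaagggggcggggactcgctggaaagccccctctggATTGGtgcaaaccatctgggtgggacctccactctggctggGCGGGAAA
CCAAT stood in 48.8% of the windows of the 35 genes, against 34.6% of all windows. The letters TTTGAA or TTCGAA, found at mitotic genes, stood in 4.65%, against 16.4%, in BRIP1 and FANCC. TGACNNNGC, the core that NRF2 binds, stood in 2.33%, against 13.3%, in RMI1 alone. These shares describe letters in 1 window per start and say nothing of binding.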

How the data were processed

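RNA from 9 cultures was hybridised to Affymetrix exon arrays, 1 array per culture. Per the labels and the submitters' processing notes, the authors summarised core probes per gene with RMA in Affymetrix Expression Console; versions, annotation release and build were looked for but not given in the sources used here. All deposited values are log2 RMA signals, used as given.

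Of 22011 clusters, 14432 carried 1 symbol, 2408 several and 5171 none. The limma package (3.58.1, R 4.3.3) was fitted to all of them, with 1 mean per group over 9 arrays, eBayes, two-sided moderated tests and Benjamini-Hochberg adjustment over all clusters, and called below 0.05. An F-test covered any change among the 3 times. The number of arrays limits precision. The workflow was tested on simulated data.

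Per-array values were given by rule for called members and for the smallest p at 24 h in each role group. Those of ATR, BARD1, CLSPN, FANCF and the promoter windows were chosen after their values were seen. Values of some arrays were also given outside the rule for BRIP1, TOPBP1 and LIG4. Further genes were named where called, up to 4 per list, with PRKDC added later. Members and lists were chosen with earlier results of these data known. Alternatives were a replicate block, other normalisations, array weights (fitted gene by gene after seeing the data), a filter on dim clusters, trended and robust eBayes, averaged clusters, fits of 2 groups, a threshold of 0.01, and leaving out each array.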

Additional observations from a re-analysis of the deposited data

Results flagged for a closer look

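Outside the clusters used above, cluster 3607537 is annotated to both FANCI and POLG, the mitochondrial DNA polymerase next to it. It read 8.92, 9.10 and 9.06 at 24 h, against 10.10, 9.72 and 9.64 untreated, a change of -0.80 ± 0.13 (adjusted p = 0.033), and all 24 h arrays were below the untreated ones. It passed in 3 of 9 fits without 1 array. A second cluster with both symbols, 3638337, had a change of 0.01 ± 0.05 (adjusted p = 0.87). It read 8.888 on every untreated array (SD 0) and between 8.82 and 8.93 on the others, so it was nearly constant over the arrays. Signal in such clusters cannot be assigned to either gene.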

How the results depend on the processing

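Of the single-gene results and role medians under the alternatives, 728 kept direction and side of the threshold, 33 newly passed, 17 no longer passed, 9 moved and 5 reversed. Members called at 8 h (0) became 19 with array weights and 7 with weights fitted gene by gene, an alternative added after seeing the data, and 0 to 3 without 1 array. Members called at 24 h (2) became 1 with a replicate block (EME1; FANCI at adjusted p = 0.061), 9 with quantile normalization, 5 with arrays centred on their medians, 20 and 10 with the 2 weightings, 0 with only the 2 groups compared, 0 at a threshold of 0.01, and 0 to 5 without 1 array. Members called from 8 h to 24 h (0) became 6 and 6 with the weightings and 0 to 1 without 1 array. F-test calls (1) became 0 with the replicate block, 2 without the dimmest 25% of clusters, 5 with quantile normalization, 2 with centring, 25 and 11 with the weightings, 0 at 0.01, and 0 to 4 without 1 array. The first weighting gave untreated replicate 3 a weight of 29.8 and did not converge. The change of EXO1 from 8 h to 24 h (-0.07) was 0.012 with gene-by-gene weights and -0.16 to 0.024 without 1 array, above 0 without 24 h replicate 1. That of MSH6 at 24 h (0.07) was -0.065 and -0.032 with the weightings and -0.12 to 0.17 without 1 array, below 0 without untreated replicate 2. The cause of these differences was not tested, beyond fewer arrays or a stricter threshold by construction. Whether replicate numbers pair the samples was not settled. Same-number correlations of deviations ranged from -0.137 to 0.394, and different-number ones from -0.425 to 0.134. The largest same-number values, 0.394 and 0.376, joined untreated and 24 h arrays of replicates 1 and 2. They lay above every different-number value, while other same-number values did not all do so. The labels name no pairing, so the fits above use none and the block results are given only here. The number of arrays, and the spread between untreated replicates, limit what can be called.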
